A study of Bos taurus with 8 samples.

Results

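Transcripts that an oocyte stores before fertilization were followed in single cells of bovine embryos. The members were 10 genes known from oocytes: BTG4, MOS, KPNA7, NPM2, H1FOO, BMP15, GDF9, TLE6, ZP3 and KHDC3L. All 10 were found by symbol among the 18825 genes of the table. H1FOO is the older symbol of H1-8. Each was described by class, by library and by single cell.

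Polyadenylated RNA was measured in single cells of wildtype embryos, which were amplified by PCR under a barcode per cell and pooled into 6 libraries, numbered as replicates 1 to 6. The labels give no cell line, transgene or drug for these libraries. The 2 libraries from embryos injected with base editor RNA were not analysed here. Values were present for 286 cells in the authors' 7 classes. Day 6 after fertilization held Morula (58 cells), day 7 held EB (39 cells), day 8 held MB ICM (51 cells) and MB TE (37 cells), and day 9 held LB EPI (45 cells), LB PE (25 cells) and LB TE (31 cells). ICM, TE, EPI and PE are the usual short forms of inner cell mass, trophectoderm, epiblast and primitive endoderm. The abbreviations EB, MB and LB are kept from the authors' cell table.

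An oocyte grows with little cell division and stocks messenger RNA that the embryo uses before its own genome is transcribed. Most of that stock is then stripped of its poly(A) tails and degraded, in a step called the maternal-to-zygotic transition. In cattle this takes place over the cleavage divisions before the morula. Poly(A) capture sees a stored transcript only while it keeps a tail.

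The members stand for different parts of that stock. BTG4 is the adaptor that brings the CCR4-NOT deadenylase to maternal messages. MOS is the kinase that, through MAP kinase, holds the egg in meiotic arrest. KPNA7 is an importin alpha of oocytes and early embryos, which carries proteins into the nucleus. NPM2 is the histone chaperone that remodels sperm chromatin, and H1FOO is the linker histone of the oocyte. BMP15 and GDF9 are growth factors that the oocyte secretes to its granulosa cells. TLE6 and KHDC3L belong to the subcortical maternal complex, and ZP3 is a glycoprotein of the zona pellucida.

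The depth limits what a low transcript can show. Reads per cell were recovered from the deposited values, with a median of 150770.5 and a range of 2633 to 747345. Library medians ran from 84897 in replicate 6 to 195159 in replicate 2, and LB PE was the shallowest class (median 39210). Morula cells came from replicate 4 (13 cells) and replicate 6 (45 cells). Of the EB cells 35 were from replicate 4, with 2 each from replicates 1 and 6. The later classes came from replicates 1, 2, 3 and 5, so class and library cannot be told apart across the step from day 7 to day 8. The same 48 cell barcodes were used in all 6 libraries. Levels are counts per 1000000 assigned reads (CPM), which carry no correction for transcript length, so members were not ranked against each other.

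Replicate 6 stood apart from the other libraries in these genes, and every result on Morula cells is given by library. Averaged over the Morula cells of each library, BTG4 was at 1154 CPM in replicate 6 and 0.708 CPM in replicate 4. MOS was at 184 against 1.59 CPM, KPNA7 at 152 against 3.56 CPM, and H1FOO at 141 against 0.542 CPM. NPM2 was at 149, BMP15 at 107 and KHDC3L at 21.9 CPM in replicate 6, and all 3 were at 0 in the 13 cells of replicate 4. GDF9 was at 72.2 against 0.181 CPM. TLE6 (55.4 against 26.6 CPM) and ZP3 (41.3 against 5.77 CPM) were nearer to each other in the 2 libraries. With 1 average per library there is no spread within a library to set these differences against.

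The averages of replicate 6 were carried by a few cells. A cell was listed when at least 5 of the 10 members each reached 50 CPM in it. By that rule 7 of the 286 cells were listed, and all 7 were Morula cells of replicate 6. They are numbered here from 1 to 7 by the summed level of the members, which was 17378, 15036, 12998, 10510, 9985, 5614 and 3114 CPM. The members had thus taken 1.74% of all reads in cell 1 and 0.311% in cell 7. These values chose the cells and are a description, with no test.

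**Figure D1:**
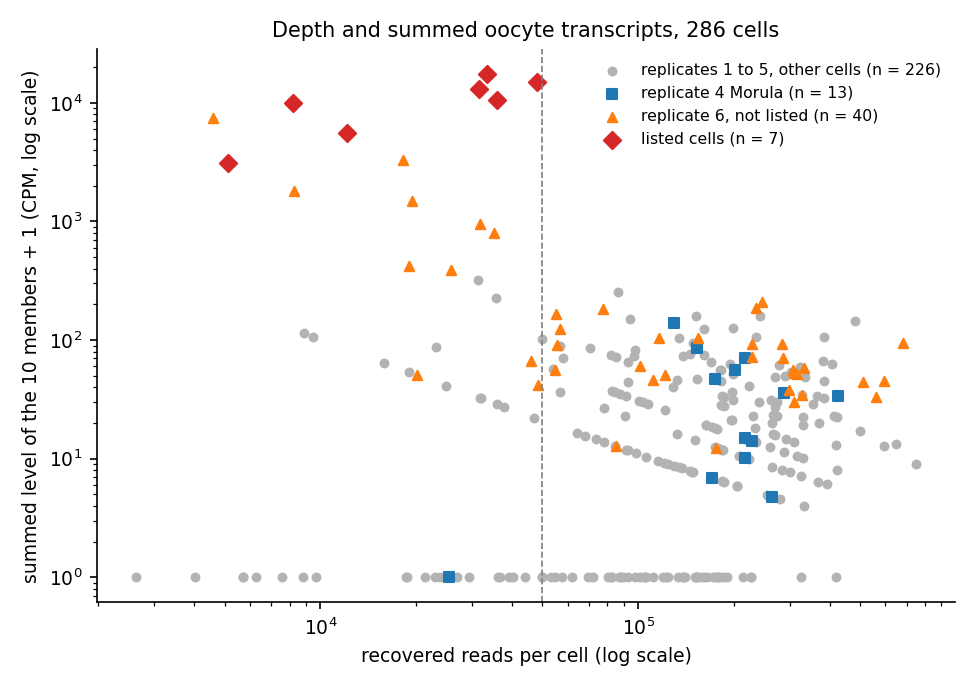
Recovered reads per cell (horizontal, log scale) against the summed level of the 10 members plus 1 CPM (vertical, log scale) for all 286 cells, each point a cell. The 7 listed cells (diamonds) and 6 unlisted cells of replicate 6 (triangles) lie at 798 CPM or more and left of the dashed line at 50000 reads. No cell of replicates 1 to 5 exceeded 319 CPM.

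All 7 listed cells were shallow. Their reads numbered 33549, 47951, 31467, 35967, 8212, 12112 and 5138 in the order above, and between 2081 and 4971 genes were detected in each. The reads of members behind the sums were 583, 721, 409, 378, 82, 68 and 16. A single read was worth 20.9 to 31.8 CPM in cells 1 to 4, and 122, 82.6 and 195 CPM in cells 5, 6 and 7. In these last 3 cells any member with a read therefore passed the level of 50 CPM. The sums of cells 1 to 4 rest on at least 378 reads each and that of cell 7 on 16.

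BTG4 had reads in every listed cell. Its lowest, median and highest levels were 389, 7023 and 10194 CPM, from 2 to 465 reads. The lowest value was that of cell 7, and the other 6 cells were at 2890 CPM or more. MOS was at 1084 to 1705 CPM in cells 1 to 6 (median over all 7 cells 1272 CPM) and at 0 in cell 7. KPNA7 ranged from 0 to 2891 CPM with a median of 609 CPM, and cell 6 alone was at 0.

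The chromatin proteins and the growth factors were less even. NPM2 had reads in 5 of the 7 cells (0 to 1022 CPM, median 334 CPM). H1FOO had reads in 6, from 0 through a median of 806 to 2383 CPM. GDF9 was read in all 7 (31.8, 229 and 1168 CPM as lowest, median and highest). BMP15 was read in 5 (0, 238 and 2435 CPM). The highest GDF9 value came from cell 7 and the highest BMP15 value from cell 5, which are among the shallowest.

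The 2 members of the subcortical maternal complex and ZP3 were read in fewer listed cells than BTG4, MOS or KPNA7. TLE6 was read in 5 listed cells, with a median of 195 and a highest level of 609 CPM. KHDC3L was read in 4, with a highest level of 298 CPM. ZP3 was read in 2 of the 7 cells, at 59.6 CPM in cell 1 and 584 CPM in cell 7, and its median was 0. Across the 45 Morula cells of replicate 6, the correlation of each member's log value with the mean of the other members was 0.872 for BTG4, 0.844 for MOS, 0.841 for KPNA7 and 0.822 for H1FOO. It was 0.558 to 0.695 for TLE6, GDF9, NPM2, KHDC3L and BMP15, in falling order, and 0.0034 for ZP3. These cells share a library and differ in depth, and the values are a description. Over the 239 cells outside replicate 6, no such value was above 0.215.

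**Figure D2:**
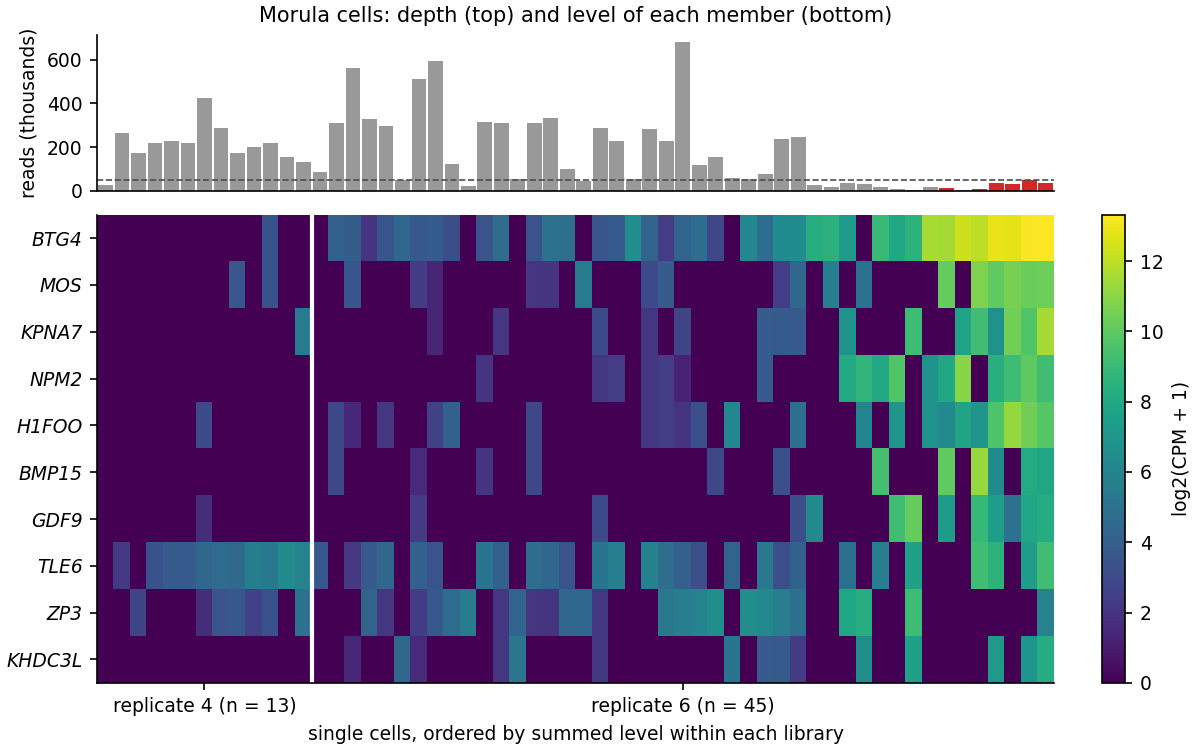
Level of each member as log2(CPM + 1) in the 58 Morula cells (columns), replicate 4 on the left and replicate 6 on the right, ordered by summed level within each library, with the reads of each cell above and the listed cells in red. High levels of most members stand together in the right-most cells of replicate 6, which are below the dashed line of 50000 reads. TLE6 and ZP3 are spread over the cells of both libraries.

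The rule cuts through a gradient. The listed cells with the fewest members at 50 CPM had 5 (cell 3, 12998 CPM in all) or 6 of them (cells 6 and 7). Just outside the rule stood 5 cells with 4 members at that level, with sums of 7386, 1812, 1498, 945 and 798 CPM, and a cell with 3 members and 3304 CPM. All 6 were Morula cells of replicate 6 with 4603 to 35088 reads. No cell of any other library had more than 2 members at 50 CPM.

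High levels of several members were not found in the shallow cells of the other libraries. Replicate 6 held 18 cells under 50000 reads, and 13 of them had at least 3 members at 50 CPM. The other 5 libraries held 39 cells under 50000 reads, and none had more than 2. The highest sum among those 39 cells was 319 CPM. Of these 39, 2 had a read of any member other than TLE6 and ZP3, against 17 of the 18 shallow cells of replicate 6. In replicate 4, 12 of the 13 Morula cells had 50000 reads or more, so nearly all of the 39 were of later classes. Depth, class and library cannot be told apart here.

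Low but repeated reads of the members were found in the deep Morula cells of replicate 6, those with at least 50000 reads (27 cells, median 245990 reads). The summed level of the members there was 11.8 to 207 CPM, with a median of 59.0 CPM, and none of these cells was listed. Between 1 and 8 members had a read, with a median of 4. The 27 include 1 cell with genes of granulosa cells, described at the end. BTG4 was read in 24 of the 27 cells, that cell among them (88.9%, 95% exact binomial interval 70.8 to 97.6). Its level was 0 to 89.7 CPM with a median of 13.5 CPM, from at most 22 reads and a median of 3.

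Deep Morula cells of replicate 4 (12 cells) gave a different picture for BTG4. It was read in 1 of 12 (8.33%, 0.211 to 38.5). The intervals cover the counting of cells within a library, and with 1 library on each side the difference has no test. After every cell was thinned to 50000 reads, the share expected to keep a BTG4 read was 54.5% in replicate 6 and 3.40% in replicate 4. For MOS the thinned shares were 10.2% and 7.49%, and for KPNA7 9.84% and 7.88%, which lie close together. H1FOO was expected in 16.7% and 2.60%. BMP15 (5.76%), NPM2 (6.18%) and KHDC3L (14.3%) had no read in replicate 4, where 0 of 12 deep cells allows a share of up to 25.0%. All of these intervals and limits cover counting error only, because reads were amplified by PCR and it is not given whether molecular identifiers were counted.

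The mix of member reads, pooled over cells, was set side by side between groups. In the deep cells of replicate 6 most members took pooled shares near those in the listed cells. TLE6 and ZP3 were set aside here, since only they reached 10 CPM in more than 1 library-by-class average of at least 3 cells. The other 8 members had 2204 reads in the listed cells, which is 12638 CPM of the pooled reads, and 241 reads in the deep cells, or 34.8 CPM. BTG4 made up 61.9% of those reads in the listed cells (59.8 to 63.9) and 58.5% in the deep cells (52.0 to 64.8). MOS made up 10.03% and 9.13%, H1FOO 9.21% and 11.2%, KPNA7 8.80% and 6.64%, and NPM2 4.63% and 2.90%. KHDC3L lay further apart, at 0.998% (0.627 to 1.51) and 5.39% (2.90 to 9.05). These intervals treat pooled reads as independent and leave out the spread between cells, which was wide. KPNA7 had 97 reads beside 342 of BTG4 in cell 1, and 4 beside 266 in cell 4. Differences in mix between the groups were not tested. The 11 other shallow Morula cells of replicate 6 had 198 reads of the 8 members, with another pooled mix. BTG4 made up 56.6% of them (49.4 to 63.6) and NPM2 23.7% (17.99 to 30.3), while MOS made up 2.02%, KPNA7 2.53% and H1FOO 3.03%. In the 239 cells outside replicate 6 the same 8 genes had 122 reads, or 2.98 CPM. There NPM2 gave 48.4% and BTG4 28.7% of them.

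The cells of a library were pooled after amplification. Reads carried over between pooled cells and transcripts of the deep cells' own cannot be told apart from these shares. Replicate 6 held 2 cells of another class, both EB, with 175603 and 111698 reads. Neither had a BTG4 read, which allows up to 10.4 CPM over their 287301 reads together, beside 20.4 CPM in the pooled deep Morula cells. Each did have reads of H1FOO (5.69 and 17.9 CPM). Across libraries, the 34 cells that shared a barcode with a listed cell had a read of the 8 members in 5 cases (14.7%, 4.95 to 31.1). The 205 cells that shared none had one in 34 cases (16.6%, 11.8 to 22.4). The 34 cells held 29 of the 122 reads of the 8 members outside replicate 6, and 0 of those 29 were of BTG4.

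**Figure D3:**
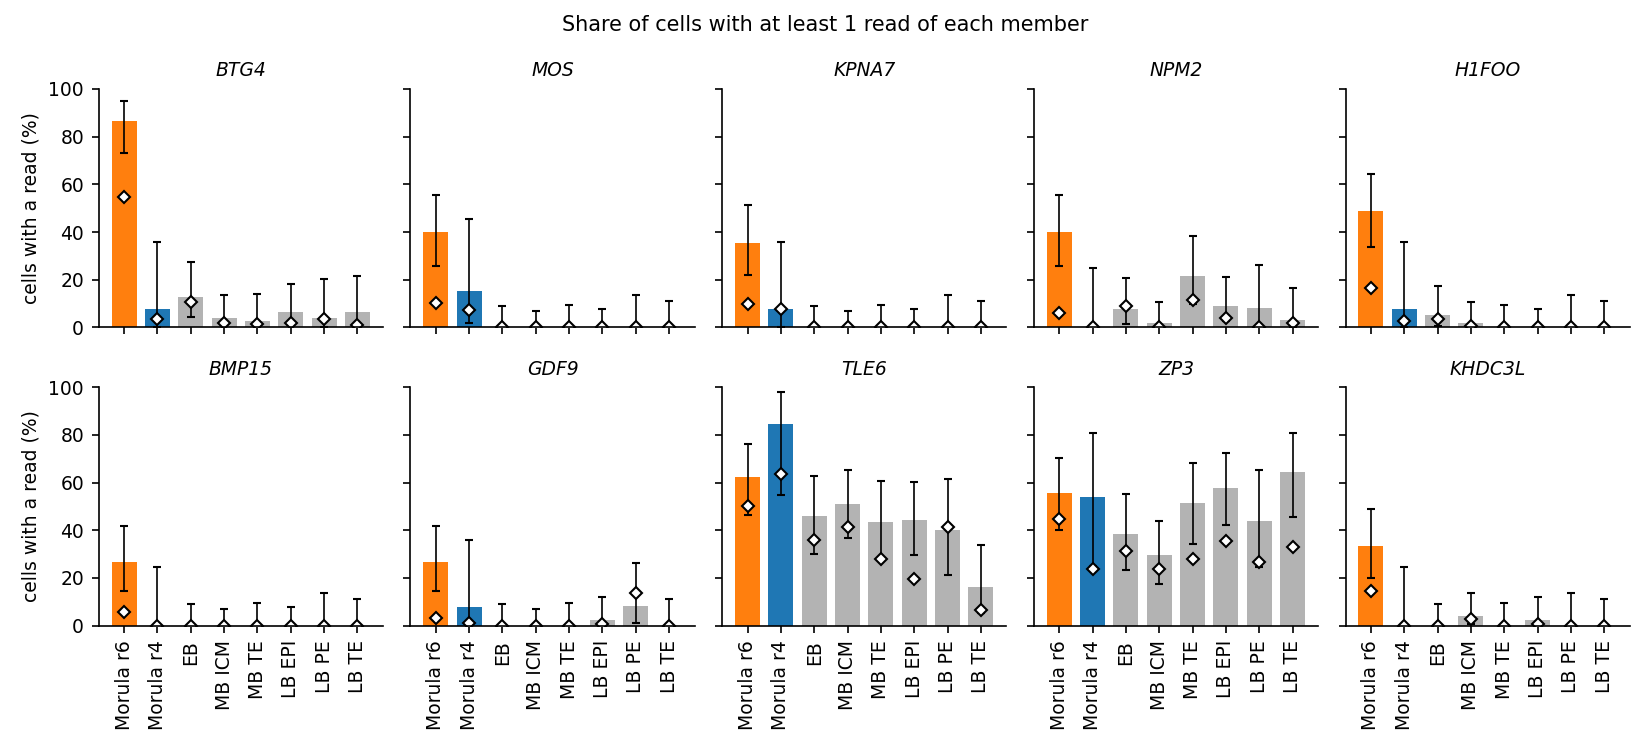
Share of cells with at least 1 read (bars, percent) for each member in the Morula cells of replicate 6 (r6) and replicate 4 (r4) and in the 6 later classes, with 95% exact binomial intervals (lines) and the share expected after thinning to 50000 reads (open diamonds). BTG4 reaches 86.7% in replicate 6 Morula and at most 12.8% in any later class. BTG4, NPM2, TLE6 and ZP3 are read in each later class.

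After the morula, 8 of the members were rare or not detected. A read of any of the 8 was found in 43 of 45 Morula cells of replicate 6 (95.6%, 84.9 to 99.5), in 4 of 13 Morula cells of replicate 4 (30.8%, 9.09 to 61.4) and in 37 of the 228 later cells (16.2%, 11.7 to 21.7). MOS, KPNA7 and BMP15 had no read in any later class. For a gene with no read, 0 of 39 EB cells allows a share of up to 7.69%, 0 of 51 MB ICM cells 5.88%, 0 of 37 MB TE cells 8.11%, 0 of 45 LB EPI cells 6.67%, 0 of 25 LB PE cells 12.0% and 0 of 31 LB TE cells 9.68%. Over the 228 cells together the limit was 1.32%.

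BTG4 was read in 14 of the 228 later cells. It was found in 5 of 39 EB cells (12.8%, 4.30 to 27.4), all 5 from replicate 4, with a highest level of 23.6 CPM. In the later classes its share was between 2.70% (1 of 37 MB TE cells) and 6.67% (3 of 45 LB EPI cells), and no later cell was above 15.6 CPM. LB TE, a differentiated epithelium with a median of 196521 reads, had it in 2 of 31 cells (6.45%). The EB cells were shallower, with a median of 87902 reads. After thinning to 50000 reads, BTG4 was expected in 10.8% of 29 EB cells and 0.970% of 30 LB TE cells. With 1 EB library of 3 or more cells, this difference was not tested. Within replicate 4, the average over 35 EB cells was 2.40 CPM and that over 13 Morula cells 0.708 CPM.

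NPM2, read in 19 of the 228 later cells, had its own distribution. It was found in 8 of 37 MB TE cells (21.6%, 9.83 to 38.2), of which 7 came from replicate 1, with a highest level of 85.4 CPM. The average over the 21 MB TE cells of replicate 1 was 7.61 CPM, against 0.124 CPM over its 24 MB ICM cells. The other 3 libraries that held both classes had few or no NPM2 reads in them. Replicate 2 was at 0 in both (12 MB TE and 21 MB ICM cells), and so was replicate 5 (1 and 5 cells). In replicate 3 it was at 2.04 CPM over 3 MB TE cells and at 0 in the single MB ICM cell. The highest NPM2 value outside the morula was 101 CPM, in an LB PE cell of replicate 3.

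The remaining members left isolated reads. H1FOO was read in 2 of 39 EB cells, both from replicate 6, and in 1 MB ICM cell. GDF9 was read in 2 of 25 LB PE cells and 1 LB EPI cell, with a highest level of 30.9 CPM. KHDC3L was read in 2 MB ICM cells, the higher at 43.0 CPM, and in 1 LB EPI cell.

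Every class held a read of BTG4, NPM2, TLE6 and ZP3. Only TLE6 and ZP3 reached 10 CPM in more than 1 library average of at least 3 cells (10 and 8 averages). Their class levels are means of library averages of at least 3 cells. TLE6 was at 41.0 ± 20.4 CPM in Morula (SD of library averages, n = 2), 18.5 CPM in EB (n = 1), 13.7 ± 16.7 CPM in MB ICM (n = 3) and 12.0 ± 1.51 CPM in MB TE (n = 3). On day 9 it was at 26.0 ± 12.7 CPM in LB PE (n = 2), 8.30 ± 3.09 CPM in LB EPI (n = 3) and 0.952 ± 1.35 CPM in LB TE (n = 2). In order of level the classes were Morula, LB PE, EB, MB ICM, MB TE, LB EPI and LB TE. Neighbours in that order did not differ beyond their spread, other than LB TE, whose 2 averages (0 and 1.90 CPM) lay below the 3 of LB EPI (5.22 to 11.4 CPM). The share of cells with a TLE6 read was 44.4% in LB EPI (29.6 to 60.0) and 16.1% in LB TE (5.45 to 33.7). Without the 7 listed cells, TLE6 in the replicate 6 Morula cells averaged 14.2 CPM, below the 26.6 CPM of replicate 4.

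ZP3 showed no order of classes. Its class means ran from 10.4 ± 13.0 CPM in MB ICM to 23.5 ± 25.1 CPM in Morula, and all classes with several averages overlapped. LB EPI was at 18.8 ± 15.6, LB PE at 16.8 ± 21.3, EB at 11.2, MB TE at 10.8 ± 9.32 and LB TE at 10.6 ± 5.70 CPM. Replicate 2 was at 35.0 CPM in LB EPI, 25.0 CPM in MB ICM and 21.3 CPM in MB TE, and replicate 3 at 1.68 to 7.29 CPM in the 4 classes with at least 3 of its cells. In the classes with fewer cells, replicate 2 was at 2.81 CPM in 2 LB PE cells and 2.68 CPM in 1 LB TE cell, and replicate 3 was at 0 in 1 MB ICM cell.

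**Figure D4:**
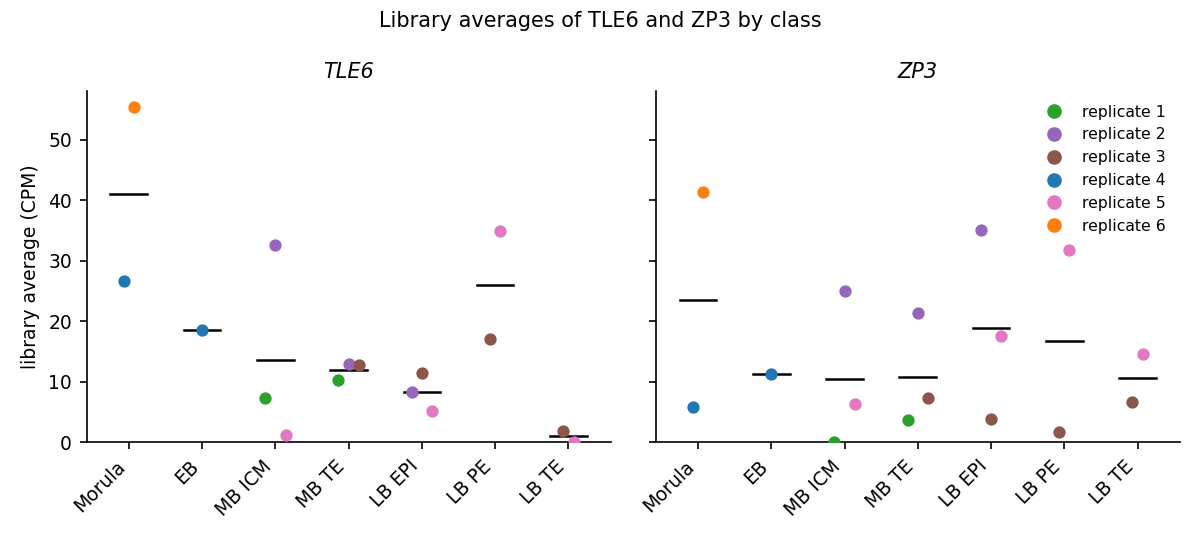
Library averages of TLE6 and ZP3 over at least 3 cells (CPM, each point a library, coloured by replicate) in the 7 classes, with the mean of each class as a line. TLE6 lies at 0 and 1.90 CPM in LB TE, and ZP3 of replicate 2 lies at 21.3 CPM or more in each of its 3 classes shown.

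The members were then tested between classes. Library averages of at least 3 cells were fitted with limma on log2(CPM + 10), with 16 averages in the fit. EB entered with 1 average, that of replicate 4, which is assumed to vary like the other groups. Of 12540 genes tested, all 10 members were among them. However, 8 members passed the filter on low values only through the Morula average of replicate 6, and only TLE6 and ZP3 reached 10 CPM in more averages (10 and 8). Since the labels tie no cell to an embryo, the p-values reflect how far libraries vary, and that variation may be technical.

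No member was called at an adjusted p under 0.05 in any of the 8 comparisons. In EB against Morula, limma called 0.0797% of all genes tested and 0 of 10 members, with 1 member under an unadjusted p of 0.05 by limma and 4 by limma-voom on summed reads. The log2 change was -2.56 for BTG4 (SE 1.75, adjusted p = 1), -1.91 for KPNA7 (SE 0.80, adjusted p = 0.938), -1.88 for MOS (SE 0.91, adjusted p = 1) and -1.65 for H1FOO (SE 0.86, adjusted p = 1). These values rest on replicate 6. Without it, the 8 members other than TLE6 and ZP3 did not pass the filter, and TLE6 was at -0.36 and ZP3 at 0.43. Without the listed cells, BTG4 was at -1.73 and TLE6 at -0.11.

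The later comparisons called no member either. For the 8 members other than TLE6 and ZP3 that says little, since none reached 10 CPM in any average of the later classes. MOS, KPNA7 and BMP15 were at 0 in all of those averages. The share of all genes called was 0.175% in MB ICM against EB, 0.997% in MB TE against EB, 10.1% in MB TE against MB ICM, 5.1% in LB EPI against MB ICM, 0.191% in LB TE against MB TE, 15.2% in LB TE against LB EPI and 5.39% in LB PE against LB EPI. Over the 80 tests of members, limma gave 3 unadjusted p under 0.05 and limma-voom gave 9, and neither gave an adjusted p under 0.05. By limma, TLE6 had the smallest adjusted p, in LB PE against LB EPI, with a log2 difference of 1.01 (SE 0.43, adjusted p = 0.188). It was at 17.0 against 11.4 CPM in replicate 3 and at 34.9 against 5.22 CPM in replicate 5, and so higher in LB PE in both libraries with at least 3 cells of each class. Replicate 2 held 2 LB PE cells, too few for the fit, and there TLE6 lay the other way, at 5.63 against 8.29 CPM. By limma-voom the smallest adjusted p was also that of TLE6, in LB TE against LB EPI (log2 difference -2.43, SE 1.07, adjusted p = 0.103). In LB TE against MB TE its log2 difference by limma was -0.92 (SE 0.44, adjusted p = 0.886).

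Other oocyte genes were read in the listed cells too. A list of 30 oocyte genes that are not members, chosen with earlier results of these data known, summed to 7034, 5047, 4322, 5449, 8768, 4211 and 584 CPM in listed cells 1 to 7. The median sum was 5047 CPM there, 596 CPM in the other 11 shallow Morula cells of replicate 6, 262 CPM in its deep Morula cells and 164 CPM in the Morula cells of replicate 4. It was 126 CPM in the 39 shallow cells of the other libraries, where the highest was 1519 CPM.

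**Figure D5:**
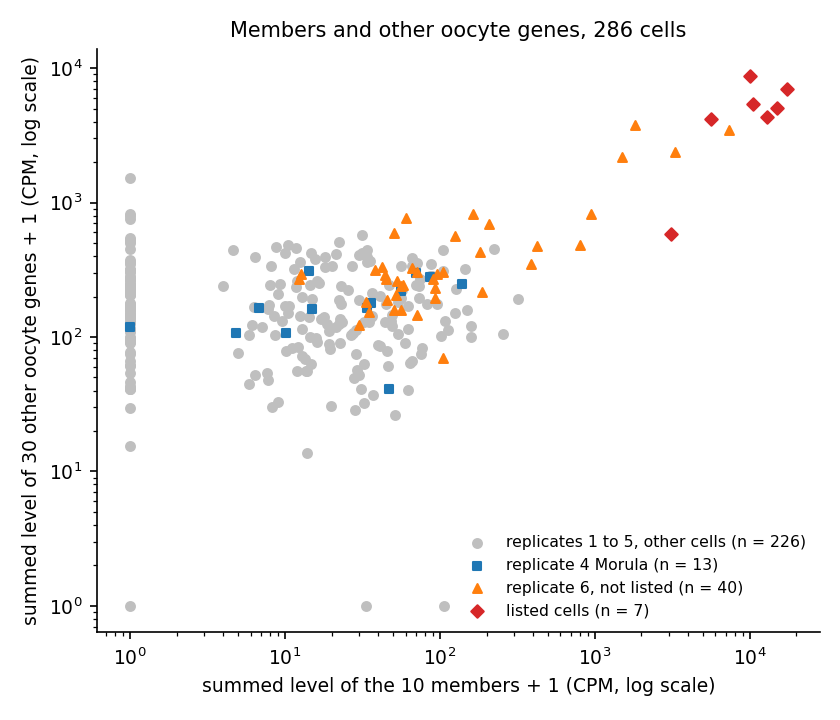
Summed level of the 10 members plus 1 CPM (horizontal, log scale) against that of 30 other oocyte genes plus 1 CPM (vertical, log scale), each point 1 of 286 cells. Of the listed cells (diamonds), 6 lie at 4211 CPM or more on the vertical axis and cell 7 lies at 584 CPM.

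Several of these 30 genes were high in most listed cells. CPEB1, which binds the cytoplasmic polyadenylation element of stored messages, was read in 6 of 7 listed cells (0, 743 and 2435 CPM as lowest, median and highest) and averaged 2.75 CPM outside replicate 6. ACCSL was read in 6 (median 330 CPM) and NLRP8 in 4 (median 179 CPM), against averages of 0.0799 and 0.244 CPM outside replicate 6. ZAR1L was read in all 7 (195, 1140 and 2314 CPM) and AURKC, an aurora kinase of meiosis, in 6 (median 834 CPM). These last were also present elsewhere, with averages of 28.4 and 48.1 CPM outside replicate 6.

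Not every oocyte gene was among them. NLRP5, NLRP9, ASTL, TDRD1 and ZBED3 had no read in the listed cells, which were shallow, so a low gene could be missed. Outside replicate 6, NLRP5, NLRP9, ASTL and ZBED3 averaged 0.478, 0.268, 0.458 and 0.969 CPM, and TDRD1 47.1 CPM. Of the 11 other shallow Morula cells of replicate 6, NLRP5 was read in 4 (up to 220 CPM) and NLRP9 in 1 (158 CPM). OOEP, of the subcortical maternal complex, was read in 1 listed cell and in 11 of 13 Morula cells of replicate 4. These counts are at unlike depth, with a median of 31467 reads in the listed cells and 216390 in the others. As an average OOEP was at 9.08 CPM in the listed cells, from 2 reads, and at 31.0 CPM in the Morula cells of replicate 4. ZP2 and ZP4, of the zona pellucida, were each read in 3 listed cells, up to 330 and 609 CPM.

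Lists around the members gave few calls. In EB against Morula limma called almost no gene of any kind, so a count of 0 there says little about a list. The share of all genes called was 10.1% in MB TE against MB ICM and 5.1% in LB EPI against MB ICM. It was 15.2% in LB TE against LB EPI. Of the 20 other oocyte genes that were tested, limma called 0 in EB against Morula (unadjusted p under 0.05 for 3, and for 4 by limma-voom, which called 0). Their median log2 change was -0.70, against -0.004 over all genes tested. Such genes could pass the filter through the Morula average of replicate 6 alone, and EB entered with replicate 4 only. The list was also chosen with earlier results known, so this median is a description and no further support. TDRD1 fell in MB TE against MB ICM (log2 change -1.44, SE 0.43, adjusted p = 0.036), and in LB EPI against MB ICM it fell by 2.61 (adjusted p = 0.000936) while AURKC rose by 1.95 (adjusted p = 0.0298) and UCHL1 by 1.81 (adjusted p = 0.00242). Of 32 tested genes of deadenylation and decay, which include the CCR4-NOT complex that BTG4 recruits, limma called 0 in EB against Morula (2 under an unadjusted p of 0.05, and 5 by limma-voom, which called 0), with a median of 0.09. Of 16 importins and related receptors, limma called 0 there (2 under an unadjusted p of 0.05, and 5 by limma-voom, which called 0), with a median of 0.40. TNPO3 fell by 1.04 in LB TE against LB EPI (SE 0.34, adjusted p = 0.0405). Of the 12 other linker histones and histone chaperones, limma called 0 in EB against Morula (1 under an unadjusted p of 0.05, and 0 by limma-voom). NASP, a histone chaperone, fell by 1.77 in LB TE against LB EPI (SE 0.23, adjusted p = 1.54e-05).

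Genes on either side of the MOS and growth factor members were tested as well. Here too a count of 0 in EB against Morula says little, because almost no gene was called there. In LB PE against LB EPI 5.39% of all genes were called. In the list of MAP kinase and meiotic arrest genes, limma called 0 of 16 in EB against Morula (0 under an unadjusted p of 0.05, and 1 by limma-voom, which called 0). In LB TE against LB EPI 2 rose and 1 fell by limma, where 15.2% of all genes were called. RPS6KA1, a kinase downstream of MAP kinase, rose by 2.11 in LB PE against LB EPI (SE 0.38, adjusted p = 0.00206). Of 15 tested receptors, SMADs and processing enzymes that serve BMP15 and GDF9, limma called 0 in EB against Morula (1 under an unadjusted p of 0.05, and 3 by limma-voom, which called 0). In MB TE against MB ICM 2 rose and 2 fell by limma, where 10.1% of all genes were called. In LB TE against LB EPI limma called 4 of the 15 (1 rose and 3 fell), and limma-voom called 8 of them beside 25.3% of all genes. In MB TE against MB ICM, FURIN, a protease that cleaves such growth factors, rose by 2.08 (SE 0.43, adjusted p = 0.00318) and SMAD7, an inhibitor, by 1.99 (SE 0.33, adjusted p = 0.000372). ACVR2B, a receptor of this family (log2 change -1.32, SE 0.38, adjusted p = 0.0305), and SMAD6 (-1.06, SE 0.32, adjusted p = 0.0365) fell.

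Genes with a pattern like the members were ranked by the correlation of their log value, over all 286 cells, with the mean log value of the members. The first was EIF4E1B, a cap-binding protein of oocytes, with r = 0.935. CNTNAP2 (0.916), CPEB1 (0.901), LOC101904481 (0.898), SLC12A5 (0.896), HIST2H2BF (0.894), PFKFB1, DBX1, RGS2 and CENPV followed. The cells share libraries and differ in depth, and the 7 listed cells weigh heavily in such values. Without them, over 279 cells, CPEB1 (0.836), CNTNAP2 (0.802) and LOC101904481 (0.781) led, and 6 of the 10 genes were the same. EIF4E1B itself was at a median of 2312 CPM in the listed cells, 8.92 CPM in the deep Morula cells of replicate 6 and 0 outside replicate 6, where its highest value was 10.8 CPM.

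The listed cells differed from the other 40 cells of replicate 6 in genes outside the members and the list of 30 oocyte genes. Differences are of mean log2(CPM + 10), with no test because all are cells of 1 library. The largest were CNTNAP2 (6.52 higher), CENPV (6.34, median 2335 against 3.95 CPM), HIST2H2BF (6.07) and EIF4E1B (5.89). All of these were also among the 10 genes most like the members. CKS1B, a cyclin-dependent kinase subunit, stood 5.26 higher (median 10454 against 172 CPM). ID3, an inhibitor of basic helix-loop-helix factors, stood 5.06 higher (1239 against 3.71 CPM). Whether the higher genes are themselves stored by oocytes was not tested. Among the lowest were the proteasome subunits PSMB7 (-3.75) and PSMD14 (-3.43), the translation factor EIF3E (-3.49) and COX8A of the respiratory chain (-3.40). The 40 cells were deeper, with a median of 118584 reads against 31467 in the listed cells. Against the 11 shallow cells among them, the differences were -3.63 for PSMB7, -3.34 for PSMD14, -2.66 for EIF3E and -3.08 for COX8A. PSMB7 was read in 1 of 7 listed cells and in all 40 of the others.

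Markers of other cell types were summed in the same cells. In the listed cells the trophectoderm list of 12 genes ranged from 459 to 5367 CPM (10 of 12 with a read), against 757 to 20310 CPM in the deep Morula cells of replicate 6. The epiblast list of 8 genes ranged from 83.4 to 991 CPM (6 of 8 with a read), against 141 to 1737 CPM. Both lists overlapped between the groups. The highest listed value of each was in cell 6, where a single read was worth 82.6 CPM. Cells 1 to 4, which had more reads, were at 459 to 1907 CPM for the trophectoderm list and 83.4 to 358 CPM for the epiblast list. The hypoblast list of 8 genes ranged from 306 to 1899 CPM (5 of 8 with a read), against 305 to 5029 CPM, and its medians were 609 and 1472 CPM. The cumulus and granulosa list of 16 genes ranged from 0 to 731 CPM in the listed cells (5 of 16 with a read), with a median of 229 CPM. Its median was 155 CPM in the other shallow Morula cells of replicate 6 (0 to 869 CPM), 55.3 CPM in its deep Morula cells and 53.0 CPM in the shallow cells of other libraries (0 to 536 CPM). The sperm list of 8 genes was at 0 in all 7 cells. The fibroblast list of 7 genes ranged from 191 to 3503 CPM in the listed cells, 0 to 5866 CPM in the other shallow Morula cells of replicate 6, 28.6 to 1572 CPM in its deep Morula cells and 0 to 4719 CPM in the shallow cells of other libraries. The part of any of these cell types in the members' levels was not tested.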

How the data were processed

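The members and the gene lists were chosen with earlier results of these data known. The deposited expression values are on a natural log scale, ln of 1 plus a value per 10000, and cover 286 of the 288 cells that the authors' cell table names. Per the submitters' processing notes, Trim Galore, HISAT2, featureCounts, Seurat and build ARS-UCD1.2 were used. Their roles, settings and filters were not given in the sources used. The log was undone, and 100% of values were whole multiples of each cell's smallest step (tolerance 0.1 reads), which gave whole reads per cell. Each library and class with at least 3 cells gave an average CPM, fitted as log2(CPM + 10), which understates changes of low genes. A gene was tested when 1 average or more reached 10 CPM, 1 being the number of averages in the smallest class, EB.

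The fit used limma 3.58.1 in R 4.3.3 (trend and robust options) with the library as a random block (consensus correlation 0.18), and Benjamini-Hochberg adjustment over all 12540 genes tested. The step was tested on simulated data, in which only genes of higher average level than the members were changed. That check therefore does not cover genes as low as the members. Shares have exact (Clopper-Pearson) 95% intervals, and a count of 0 allows 3 counts. Named genes were the members, called list genes, the 10 genes most like the members by correlation, and the 10 highest and 10 lowest genes of the listed cells. List genes named outside EB against Morula, and the other oocyte genes named in the listed cells, were chosen after their values were seen. Plots used matplotlib 3.10.9.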

Additional observations from a re-analysis of the deposited data

Results flagged for a closer look

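The library averages over all cells, 6 in number for each member, had replicate 6 as the highest value by a wide gap for 9 of the 10 members. A value is named here when its gap to the nearest other library, divided by the whole range, was above Dixon's 95% critical value of 0.625 for 6 samples. The members were chosen with the high cells of this library known, so these values restate that choice, and the rate of about 1 in 20 groups that chance gives does not apply to them. BTG4 averaged 1105 CPM in replicate 6, with 1.94 CPM in the next library. MOS was at 176 CPM (next 0.431), KPNA7 at 146 CPM (next 0.963), NPM2 at 143 CPM (next 3.70) and H1FOO at 136 CPM (next 0.147). BMP15 was at 103 CPM (next 0), GDF9 at 69.1 CPM (next 0.643) and KHDC3L at 20.9 CPM (next 0.915). TLE6 was at 53.1 CPM with 20.7 CPM in the next library. ZP3 did not pass. These 9 values rest on the same cells and are not independent of each other, and 45 of the 47 cells of replicate 6 were Morula cells, so these averages are mostly those of its Morula cells. The 13 Morula cells of replicate 4 were at 0.708 CPM for BTG4, 1.59 CPM for MOS and 0 for NPM2, BMP15 and KHDC3L, against 1154, 184, 149, 107 and 21.9 CPM over the Morula cells of replicate 6.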

How the results depend on the processing

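No member was called in any of the 141 values computed for the 8 comparisons under other pseudocounts, filters, cell minimums, ways of averaging, limma-voom, no library block, deep cells only, without the listed cells or without each library, and the smallest adjusted p was 0.0741. In EB against Morula only TLE6 and ZP3 passed the filter without replicate 6, or when at least 2 averages had to reach 10 CPM. With deep cells only, BTG4, TLE6 and ZP3 passed, so a count of 0 covers few members in such settings. Without replicate 4 the comparisons with EB could not be fitted. Classes were paired through the library, which entered as a block in the fit, and with no replicate block limma also called 0 members in each comparison.

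The number of listed cells was 7. It was 12 when 4 members had to reach 50 CPM and 13 when 3 had to, a rule added after seeing the data. The mean share of cells with a read, over the 10 members, fell with thinning, which also leaves out cells under the target (at 50000 reads 39 of 58 Morula, 29 of 39 EB and 11 of 25 LB PE cells stay, and none of the listed cells). Over the same 39 Morula cells it was 36.4% unthinned. In Morula it was 39.5%, and 17.3% and 18.3% after thinning to 20000 and 50000 reads. Leaving out a library gave 18.5% (without replicate 6) to 45.6%. With at least 2 reads required it was 6.67% in EB (from 11.03%), 6.89% in LB EPI (from 12.2%), 5.20% in LB PE (from 10.4%) and 6.77% in LB TE (from 9.03%). Thinned to 20000 reads it was 4.63% in EB, 3.94% in MB ICM (from 9.22%), 3.75% in MB TE (from 11.9%), 3.65% in LB EPI, 5.23% in LB PE and 1.91% in LB TE. Thinned to 50000 reads it was 6.88% in MB TE, 6.19% in LB EPI and 4.20% in LB TE, and to 100000 reads 8.67% in LB EPI and 6.58% in LB TE. Leaving out a library gave 8.33% to 11% in LB TE. Of 100 shares of single members in Morula cells, 42 moved out of their interval.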

Other observations

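A Morula cell of replicate 6 with 77442 reads carried genes of granulosa cells, the follicle cells that surround the oocyte. The 16 genes of the cumulus and granulosa list summed to 49017 CPM in it, and the next highest of the 286 cells was at 2214 CPM. INHBA and INHA, subunits of inhibin and activin, were at 32825 and 5966 CPM. FST, the activin antagonist follistatin, was at 7270 CPM. CYP11A1 and CYP19A1, enzymes of steroid synthesis, were at 1201 and 723 CPM, beside at most 1062 and 48.2 CPM in any other cell. Of the 16 genes 10 had a read. FSHR (25.8 CPM) and NR5A1 (12.9 CPM) were not at their highest here, and HAS2, PTX3, TNFAIP6, STAR, HSD3B1 and AMHR2 had no read. This cell was not listed: 6 members had a read in it and 1 reached 50 CPM, which was ZP3 at 77.5 CPM. BTG4 was at 25.8 CPM there, from 2 reads. By its depth the cell is 1 of the 27 deep Morula cells of replicate 6, and it is counted in their shares and pooled mix.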
